A study of Mus musculus with 12 samples.

Results

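The Arp2/3 complex is the actin nucleator that starts a new filament from the side of an existing filament. Its subunit genes were taken by symbol from the deposited count table: Actr2, Actr3, Arpc1a, Arpc1b, Arpc2, Arpc3, Arpc4, Arpc5 and Arpc5l. All 9 were found among the 55291 symbols of the table, and all 9 were among the 19010 genes that passed the filter on low counts. RNA came from CD8+ T cells, the cytotoxic lymphocytes, of mouse lymph node and spleen, which were activated and expanded for 3 days and then kept for 24 h in collagen gel or in media. The groups were Dock8 KO cells in bovine collagen gel at 2 mg/mL (KO gel), Dock8 KO cells in media (KO media), WT cells in the same gel (WT gel) and WT cells in media (WT media), with 3 libraries in each. The labels call the gel samples migrating cells, and the series design gives 3 mice per group. The Dock8 allele, the mouse strain, sex and age, and whether gel and media libraries share mice were not stated in the material used.

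In the complex, Arp2 and Arp3, the products of Actr2 and Actr3, resemble actin and together form the seed of the new filament. ARPC2 and ARPC4 form the central clamp that holds this seed and binds the side of the older filament, while ARPC1, ARPC3 and ARPC5 complete the assembly. ARPC1 and ARPC5 each exist in paralogous forms, so that a given complex holds either ARPC1A or ARPC1B and either ARPC5 or ARPC5L. The complex is switched on by proteins such as WASP, which acts downstream of the GTPase Cdc42, and the WAVE complex, which acts downstream of Rac. DOCK8 is an exchange factor that activates Cdc42, and branched actin is known to shape the leading edge of T cells and the contact they form with target cells. In human patients, loss of ARPC1B causes an immunodeficiency that includes T cell defects.

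Totals ran from 28483064 to 61390702 assigned counts per library, and levels are given as CPM, a count scaled to the TMM-adjusted total of its library. Dock8 averaged 162 ± 5.04 CPM in KO gel and 120 ± 9.83 CPM in KO media, against 413 ± 35.6 CPM in WT gel and 408 ± 41.1 CPM in WT media (SD, n = 3 each). Its lower level in KO cells was in the labelled direction (edgeR adjusted p = 8.44e-07 in gel and 9.29e-08 in media), although transcript was still counted. Dock8 was also called higher in KO gel than in KO media (log2 fold change 0.44, edgeR adjusted p = 0.00425). The 10 CD8 T cell markers were all counted in every group, at a summed 3640 to 3730 CPM in KO gel, 3680 to 4080 CPM in KO media, 3990 to 4340 CPM in WT gel and 3890 to 4330 CPM in WT media. The summed B cell markers came almost wholly from Ighm (97.8 to 98.7% of the sum). The B cell receptor gene Cd79a stood at 0.199 to 0.722 CPM and its partner Cd79b at 10.4 to 14.7 CPM. KO gel libraries held 28362 to 30104 genes at a common depth, against 24336 to 25142 in the other groups. The libraries WT gel 2 and KO media 3 stood apart, with 11.8% and 8.09% of their counts on a single predicted gene model that took 3.17 to 6.92% elsewhere. The calls of the subunits and of the other named genes, and the ratios of paired subunits, are therefore also given without them.

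The most abundant subunit transcripts per length were Arpc2, Actr3, Arpc5 and Actr2, and the least abundant were the paralogs Arpc1a and Arpc5l. On the scale of CPM per kilobase of annotated exon, averaged over the 12 libraries, Arpc2 stood at 174, Actr3 at 138, Arpc5 at 125 and Actr2 at 109. Arpc3 (66.4), Arpc4 (65.3) and Arpc1b (59.5) formed a middle range, with Arpc1a (18) and Arpc5l (15.2) below. Neighbours in this order overlapped in their ranges over libraries except Actr2 with Arpc3 and Arpc1b with Arpc1a, but within a library the order hardly moved: Arpc2, Actr3, Arpc5, Actr2, Arpc1a and Arpc5l kept their ranks in 12 of 12 libraries. Arpc3 was above Arpc4 in 8 of 12 libraries, so their order was not settled. The order also depends on the length used. Per kilobase of the longest coding transcript, Actr3 (250) and Arpc2 (246) led, Arpc3 (204) moved above Actr2 (156) and Arpc5 (149), and Arpc5l (51.2) was above Arpc1a (28.3).

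**Figure D1:**
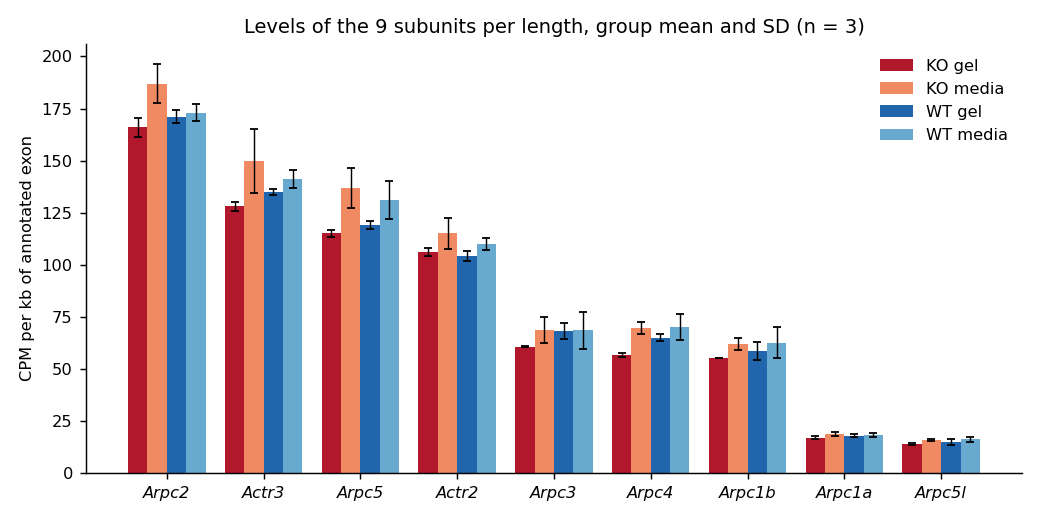
Level of each Arp2/3 subunit transcript in CPM per kilobase of annotated exon, as the mean of each group with SD (n = 3 libraries). Arpc2 is highest and Arpc5l lowest in each of the 4 groups, and the KO gel bar is below the KO media bar for every subunit.

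Every subunit transcript was lower in KO gel than in KO media, at 81.5 to 91.7% of the KO media level. The decrease passed the threshold of an adjusted p under 0.05 for 3 of the 9 (Arpc4, Arpc5 and Actr3), beside 9.74% of all genes tested that were called lower and 19.5% of the 5790 genes that averaged at least 5 log2 CPM, the range in which all 9 lie. For 9 of 9 every KO gel library was below every KO media library, an order found for 23.9% of all genes. The members' median log2 fold change was -0.18, beside -0.0073 over all genes and -0.09 over the 5790 more abundant ones, and values below 0 were found for 9 of 9 members, 50.8% of all genes and 66.6% of those 5790. At an unadjusted p under 0.05 there were 6 of 9, against 36.7% of all genes. For the order of libraries and for the unadjusted p, the share was taken over all genes only. It was not taken over the more abundant ones, here or in the other comparisons. In RNA from a bulk culture, fewer cells of a type and less RNA per cell cannot be told apart.

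**Figure D2:**
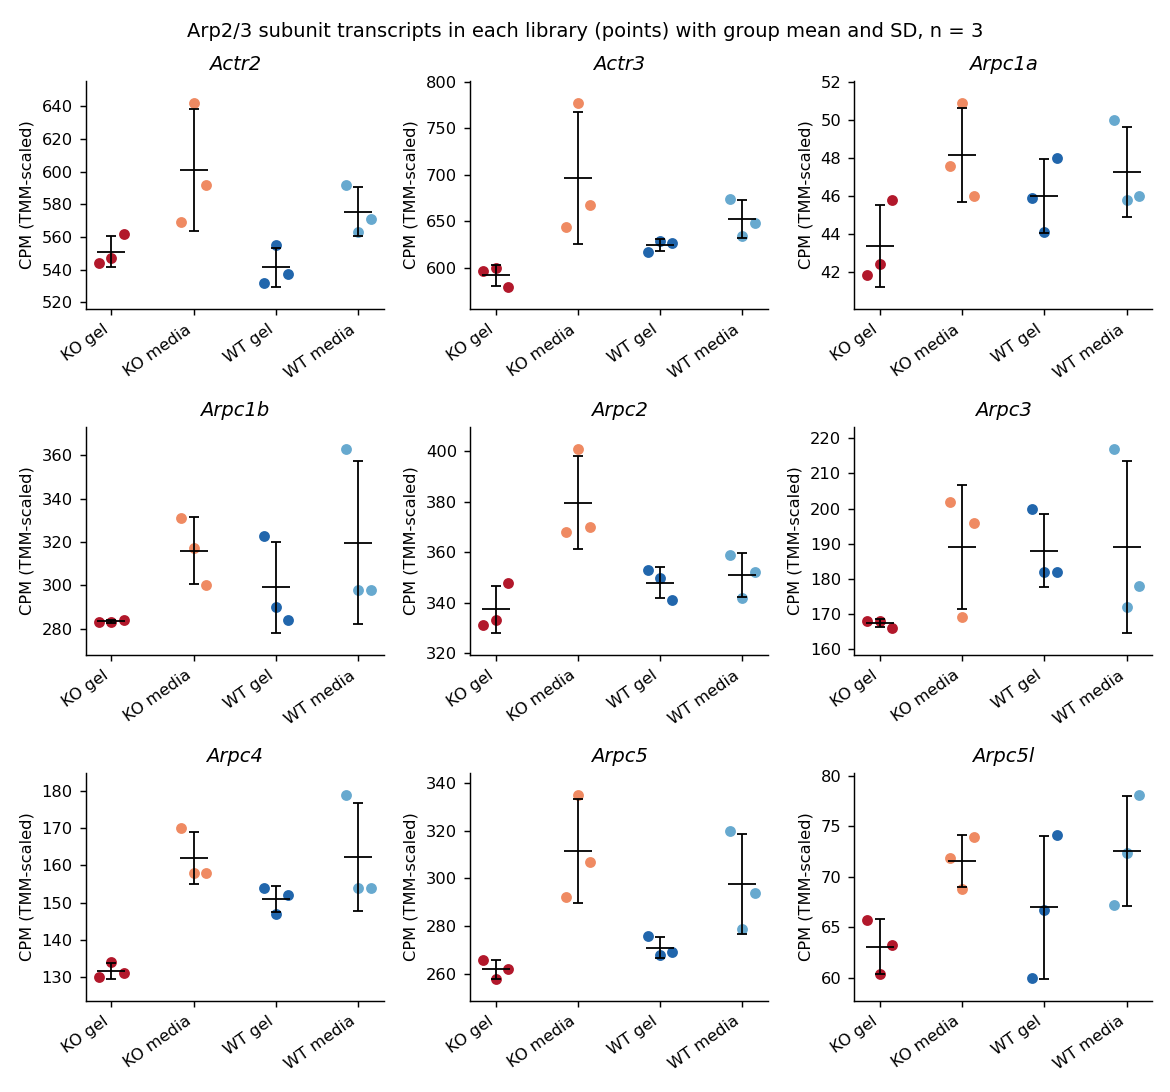
CPM of the 9 Arp2/3 subunit transcripts in each library (points), with the group mean and SD (n = 3); the vertical axes differ between panels and do not start at 0. In every panel the KO gel points lie below all KO media points, while WT gel and WT media overlap for 5 of the subunits.

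Of the actin-like core subunits, Actr3 fell and Actr2 did not pass the test. Actr3, which encodes Arp3 (chromosome 1, 125392905 to 125435727, minus strand, GRCm38), measured 596, 600 and 579 CPM in KO gel libraries, against 644, 777 and 667 CPM in KO media libraries. The KO media library 2 was the highest of all 12, and the KO gel libraries were the lowest. The log2 fold change was -0.23 (SE 0.07, adjusted p = 0.0385), or 85% of the KO media level. Without KO media library 2 it was -0.15 with an adjusted p of 0.113, and the call was also lost without any of the KO gel libraries or without WT gel 2 (adjusted p of 0.0623 to 0.114). Actr2, which encodes Arp2 (chromosome 11, 20062304 to 20112913, minus strand), measured 544, 547 and 562 CPM in KO gel, against 569, 642 and 592 CPM in KO media. The gap between the highest gel and the lowest media library was small, and the log2 fold change of -0.12 (SE 0.06) had an adjusted p of 0.177.

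Of the clamp subunits, Arpc4 fell most of all 9 members and Arpc2 missed the threshold. Arpc4 (chromosome 6, 113378115 to 113390448, plus strand) measured 130, 134 and 131 CPM in KO gel libraries, against 170, 158 and 158 CPM in KO media libraries. The KO gel libraries lay close together and below all 9 other libraries. Its log2 fold change was -0.30 (SE 0.07, adjusted p = 0.00861), or 81.5% of the KO media level. Arpc2 (chromosome 1, 74236084 to 74268209, plus strand) measured 331, 333 and 348 CPM in KO gel, against 368, 401 and 370 CPM in KO media. Its groups did not overlap either, with a log2 fold change of -0.17 (SE 0.06) and an adjusted p of 0.0613.

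Of the bridging pair, Arpc5 fell while its scarcer paralog Arpc5l did not pass the test. Arpc5 (chromosome 1, 152766542 to 152775597, plus strand) measured 266, 258 and 262 CPM in KO gel libraries, against 292, 335 and 307 CPM in KO media libraries. The log2 fold change was -0.25 (SE 0.07, adjusted p = 0.0221), or 84.1% of the KO media level. Without any of the KO gel libraries or without KO media 2 the adjusted p of Arpc5 was 0.0512 to 0.0683, which missed the threshold. Arpc5l (chromosome 2, 39005348 to 39015877, plus strand) measured 65.7, 60.3 and 63.2 CPM in KO gel, against 71.8, 68.8 and 73.9 CPM in KO media. The difference of -0.18 on the log2 scale (SE 0.08) had an adjusted p of 0.117.

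The remaining subunits, Arpc1a, Arpc1b and Arpc3, were also lower in every KO gel library without passing the test. Arpc1b, the form of the propeller subunit ARPC1 that prevails in blood cells (chromosome 5, 145114215 to 145130705, plus strand), measured 283, 283 and 284 CPM in KO gel, against 331, 317 and 300 CPM in KO media (log2 fold change -0.16, SE 0.08, adjusted p = 0.179). Arpc1a (chromosome 5, 145083830 to 145108761, plus strand) measured 41.8, 42.4 and 45.8 CPM in KO gel, against 47.6, 50.9 and 46 CPM in KO media (-0.15, SE 0.07, adjusted p = 0.111). Arpc3, whose product contacts Arp3 (chromosome 5, 122391878 to 122414184, plus strand), measured 168, 168 and 166 CPM in KO gel, against 202, 169 and 196 CPM in KO media (-0.18, SE 0.09, adjusted p = 0.170). For Arpc1a and Arpc3 the lowest KO media library was close to the highest KO gel library, so the separation of their groups was slight.

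The calls depended on which libraries were included. Without WT gel 2 and KO media 3, only Arpc4 was called (log2 fold change -0.31, adjusted p = 0.0408), while Arpc5 (-0.26, adjusted p = 0.0828) and Actr3 (-0.27, adjusted p = 0.0861) kept their size and missed the threshold. Arpc4 was called in 21 of 22 alternative settings, Arpc5 in 15 and Actr3 in 14, and all 9 members were below 0 in all 22. Some of these settings left out only a WT library, which is in neither group compared. When a single KO library was left out, Arpc5 and Actr3 stayed called only without KO media 1 or without KO media 3. Other features were also set side by side in the same contrast. Mitochondrial transcripts took 2.27 to 2.61% of counts in KO gel, against 1.4 to 2.31% in KO media, ranges that overlap. The 8 erythroid and platelet markers summed to 10.6 to 22 CPM in KO gel, against 4.34 to 6.2 CPM in KO media, and the 8 neutrophil and mast cell markers to 10.5 to 16 CPM, against 5.77 to 8.7 CPM, with S100a8 and S100a9 at 0 in KO gel. Of the tested genes, 3 of 5 in the erythroid list and 2 of 3 in the neutrophil list were called higher. So were 2 of 4 in the CD4 and regulatory T cell list and 1 of 4 in the macrophage and dendritic cell list. In the lists for B cells (4 tested), NK cells (3) and stromal cells (3), 0 were called. Of 10 CD8 T cell markers, 1 was called lower. Over all genes tested, 11.1% were called higher and 9.74% lower. KO gel libraries also held more genes at a common depth than the other groups. The part of these features in the lower subunit levels was not tested.

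**Figure D3:**
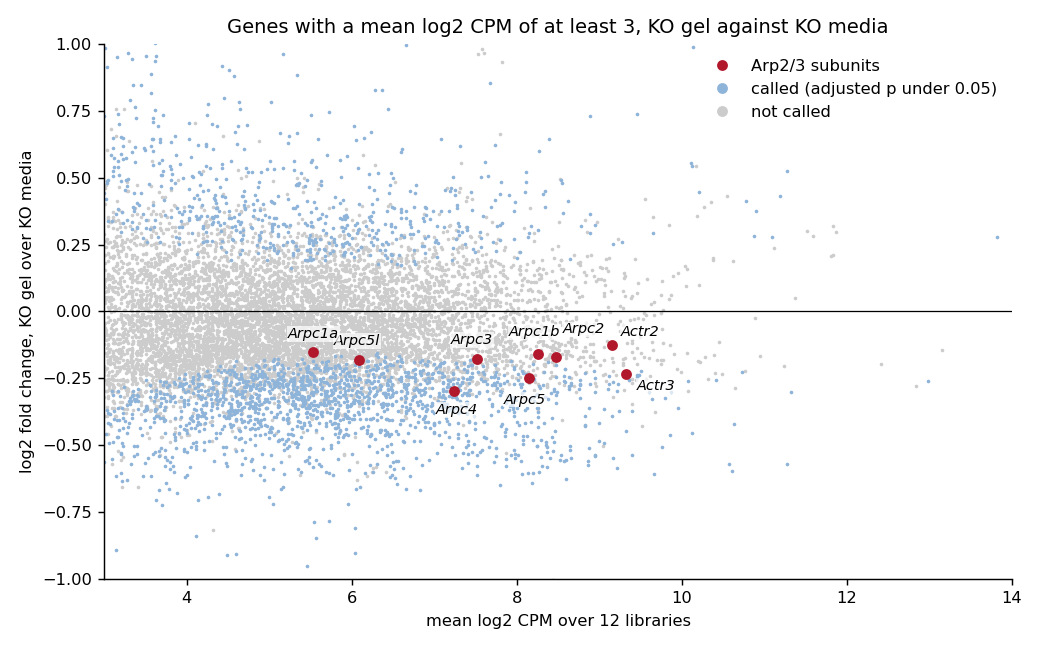
Log2 fold change of KO gel over KO media against the mean log2 CPM for the 9933 genes that averaged at least 3 on that scale; 24 genes lie beyond the plotted range of 1. The 9 Arp2/3 subunits (red) all lie below 0, between -0.30 and -0.12 and within the spread of the other genes, called (blue) or not (grey).

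Between the genotypes in gel, none of the subunit transcripts passed the test in the fit of all groups. In KO gel against WT gel, 0 of 9 were called by edgeR (7.71% of all genes were called lower), 1 had an unadjusted p under 0.05 (30.1% of all genes), DESeq2 called 1 and limma-voom 0. For 5 of 9 every KO gel library was below every WT gel library (Arpc1b, Arpc3, Arpc4, Arpc5 and Actr3), an order found for 19.9% of all genes, and 8 of 9 log2 fold changes were below 0, as were 50.1% of all genes and 68.5% of the 5790 more abundant ones. The members' median of -0.08 was close to that of those 5790 genes (-0.085). Arpc4 again had the largest difference, at 130, 134 and 131 CPM in KO gel libraries, against 154, 147 and 152 CPM in WT gel libraries. The groups were well apart, and the log2 fold change was -0.20 (SE 0.07) with an adjusted p of 0.0699; DESeq2 was the tool that called it. Arpc3 measured 168, 168 and 166 CPM in KO gel, against 200, 182 and 182 CPM in WT gel (-0.17, SE 0.09, adjusted p = 0.223). Actr2 was the exception in direction, at 544, 547 and 562 CPM in KO gel, against 532, 555 and 537 CPM in WT gel (0.03, SE 0.06, adjusted p = 0.829). The direction of the weaker differences depended on the scaling of the libraries. With library totals alone, which moved the median of all genes to 0.102, only 2 of 9 members were below 0, though 8 of 9 were still below that median.

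In WT cells, subunit levels after gel culture had the same sign of difference and none passed the test. In WT gel against WT media, edgeR, DESeq2 and limma-voom each called 0 of 9 members (0.0368% of all genes were called by edgeR in either direction), and 0 of 9 had an unadjusted p under 0.05 (5.43% of all genes). All 9 log2 fold changes were below 0, as were 52% of all genes and 51.1% of the 5790 more abundant ones. They ran from -0.13 to -0.01, and for 4 of 9 (Arpc4, Arpc5, Actr2 and Actr3) every WT gel library was below every WT media library, an order found for 4.53% of all genes. Same-numbered WT gel and WT media libraries deviated together, and within these pairs 6 of 9 members (the same 4 with Arpc1b and Arpc5l) were lower in gel in all 3 pairs, against 19.6% of all genes. Groups without overlap are lower in any pairing, so only Arpc1b and Arpc5l add to the order given above. A fit with the number as a block raised the calls over all genes to 171, against 7 without it, and still called 0 of 9 members. Arpc5 differed most, at 276, 268 and 269 CPM in WT gel libraries, against 320, 279 and 294 CPM in WT media libraries (log2 fold change -0.13, SE 0.07, adjusted p = 0.945). The WT media library 1 was high for several subunits. It held 363 CPM of Arpc1b against 298 CPM in both other WT media libraries, and 217 CPM of Arpc3 against 172 and 178 CPM.

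Without collagen, no subunit passed the test between the genotypes. In KO media against WT media, 0 of 9 members were called by edgeR, DESeq2 or limma-voom (0.189% of all genes were called by edgeR), 0 of 9 had an unadjusted p under 0.05 (7.49% of all genes), and the log2 fold changes ran from -0.02 to 0.11. Arpc2 was the one subunit whose groups did not overlap, at 368, 401 and 370 CPM in KO media, against 359, 342 and 352 CPM in WT media (0.11, SE 0.06, adjusted p = 0.714). Within same-numbered pairs, 0 of 9 members were lower in KO media in all 3, against 14.3% of all genes, and the fit with the number as a block called 57 genes in place of 36 and again 0 of 9 members. KO media was the group with the highest mean for Actr2, Actr3, Arpc1a, Arpc2 and Arpc5. The comparison of KO gel with KO media and that of KO media with WT media share the KO media libraries.

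Whether the gel response differed between the genotypes was tested by the interaction. The difference between the KO and the WT response was below 0 for all 9 members (50% of all genes and 66.9% of the 5790 more abundant ones, whose median was -0.084 beside -0.12 for the members), from -0.19 for Arpc4 (SE 0.10) to -0.04 for Actr2 (SE 0.09). None was called: edgeR, DESeq2 and limma-voom each gave 0 of 9, with a smallest edgeR adjusted p of 0.294 and 0 of 9 at an unadjusted p under 0.05 (19.6% of all genes), beside 3.35% of all genes called. With library totals alone, which moved the median of all genes to 0.124, 4 of 9 were below 0. All 9 were still below that median. A difference between the KO and the WT response is therefore not shown for any subunit. Without WT gel 2 and KO media 3, edgeR also called 0 of 9 in the interaction and in the comparisons of KO gel with WT gel, WT gel with WT media and KO media with WT media. Summed over the 9 members, the level averaged 2430 ± 9.02 CPM in KO gel, 2774 ± 126 CPM in KO media, 2536 ± 23.6 CPM in WT gel and 2666 ± 138 CPM in WT media (SD, n = 3 each). In this sum the gel groups were tighter than the media groups in both genotypes. In WT this did not hold over all genes tested. There the chi-square per degree of freedom between replicates was 30.8 to 118 in gel and 27.9 to 49.8 in media.

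**Figure D4:**
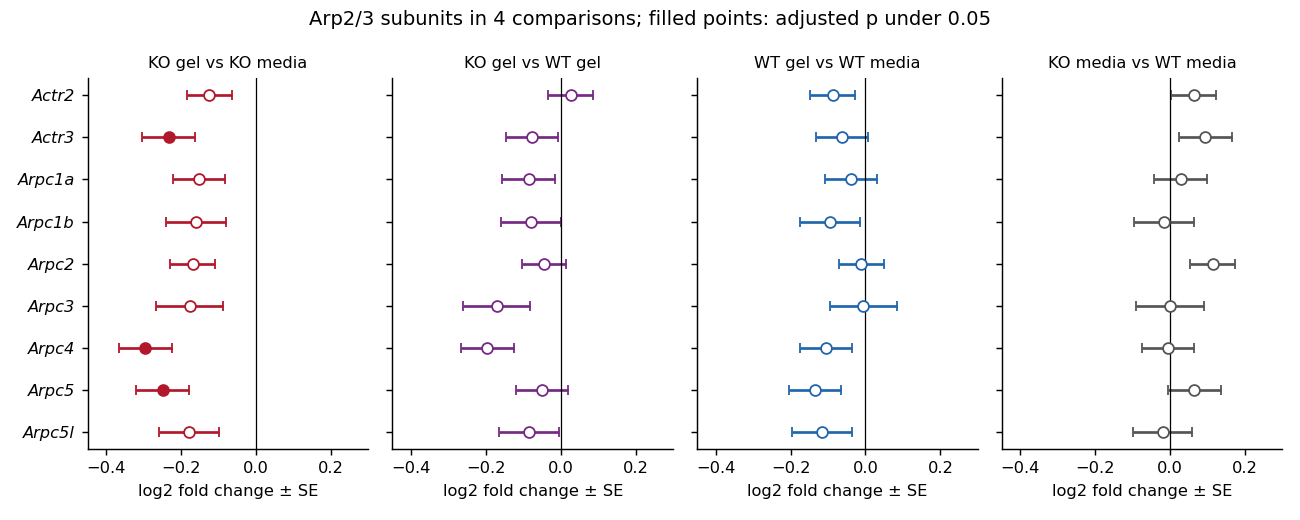
Log2 fold change with SE of each Arp2/3 subunit in the 4 comparisons of 2 groups; filled points have an adjusted p under 0.05. Filled points occur only for Actr3, Arpc4 and Arpc5 in KO gel against KO media, and the values in KO media against WT media lie around 0.

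Paralogs that share a place in the complex, and the actin-like subunits that sit side by side in it, were compared as ratios within a library. Such ratios do not depend on the scaling between libraries. Arpc1b exceeded Arpc1a in all 12 libraries, with a log2 ratio of counts per kilobase of 1.71 ± 0.07 in KO gel, 1.72 ± 0.08 in KO media, 1.71 ± 0.13 in WT gel and 1.76 ± 0.09 in WT media (SD, n = 3 each). Arpc1b thus made up 74.8 to 78.5% of the summed ARPC1 transcript per length. Between groups this ratio differed by at most 0.05 on the log2 scale, within the spread between libraries (two-sided exact permutation p of 0.6 to 0.9). Arpc5l stayed below Arpc5, with a log2 ratio of -3.04 ± 0.04 in KO gel, -3.10 ± 0.14 in KO media, -3.01 ± 0.17 in WT gel and -3.02 ± 0.19 in WT media, so that Arpc5l made up 9.41 to 12.2% of the pair (exact permutation p of 0.5 to 1). These shares depend on the length used: per kilobase of the longest coding transcript, Arpc5l made up 22.7 to 28.2% of its pair, while Arpc1b made up 75.6 to 79.3%. The differences between groups do not depend on it.

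The ratio of the actin-like subunits was the one that separated the KO gel libraries. The log2 ratio of Actr3 over Actr2 was 0.302, 0.300 and 0.212 in KO gel libraries, against 0.347, 0.442 and 0.342 in KO media libraries. In WT it was 0.382, 0.350 and 0.392 in gel libraries, against 0.356, 0.341 and 0.351 in media libraries. Every KO gel library was below all 9 others. The difference was -0.11 from KO media and -0.10 from WT gel, each with a two-sided exact permutation p of 0.1, the smallest that 3 against 3 libraries allow, and 0.6 after Benjamini-Hochberg adjustment over the 12 ratio tests. Without WT gel 2 and KO media 3 the difference was -0.12 in both comparisons. A ratio within a library shows unequal change and does not say which gene moved.

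**Figure D5:**
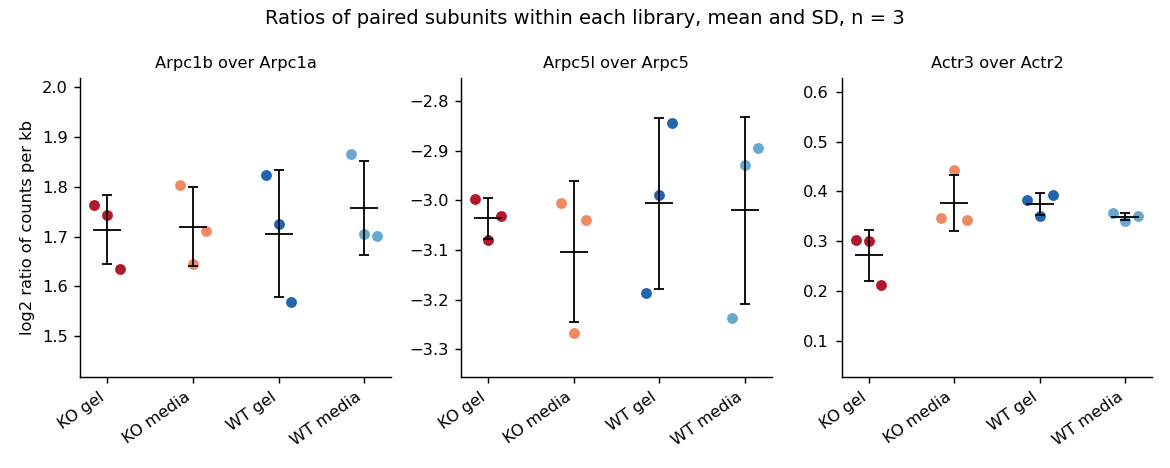
Log2 ratio of counts per kilobase for Arpc1b over Arpc1a, Arpc5l over Arpc5 and Actr3 over Actr2 in each library (points), with group mean and SD (n = 3); the axes do not start at 0 and span the same width. The KO gel points for Actr3 over Actr2 lie between 0.212 and 0.302, below all other points of that panel.

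Some of these counts share sequence with other genes. Of the 50-base stretches of the annotated Actr3 transcripts, 25.45% also occur in Actr3-ps (listed as Gm8822 in GENCODE), a processed pseudogene on chromosome X (81820383 to 81822920, GRCm38), and 3.96% in Gm15899. The Actr3 coding sequence and the pseudogene agree at 1240 of 1254 aligned bases. The stretch of coding bases 181 to 240 of Actr3 and its counterpart in the pseudogene are shown because a read of this length would tell them apart by a single base, given in capitals:
Actr3: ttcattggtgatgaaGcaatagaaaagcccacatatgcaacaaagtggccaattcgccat
Actr3-ps: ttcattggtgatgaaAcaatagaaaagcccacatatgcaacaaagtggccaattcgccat
Counts assigned to Actr3-ps came to 32.1 to 36.1% of those of Actr3 in the same library. They averaged 199 ± 3.64 CPM in KO gel, 237 ± 11.1 CPM in KO media, 217 ± 5.43 CPM in WT gel and 224 ± 9.8 CPM in WT media (SD, n = 3 each). In KO gel against KO media Actr3-ps was also lower (log2 fold change -0.25, SE 0.06, adjusted p = 0.0118). The handling of reads that map to several places is not given in the sources used here, so counts could be split between the 2 genes. With the counts of copies added to their members, the log2 fold change of Actr3 was -0.24 with an adjusted p of 0.032.

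Arpc1b shares 18.2% of its exonic bases with Pdap1 on the opposite strand, and the strand setting of the counting is not given. Pdap1 stood at 62.4 to 67.1 CPM in KO gel and 62.9 to 68 CPM in KO media (log2 fold change -0.04, adjusted p = 0.767). Arpc4 shares 12.2% of its exonic bases with Ttll3, a tubulin tyrosine ligase-like gene on the same strand, which stood at 14.3 to 18 CPM in KO gel and 9.44 to 13.7 CPM in KO media (0.43, adjusted p = 0.122). That value was above 0 where Arpc4 fell. The paralogs themselves were well separated. Arpc1a and Arpc1b lie 5453 bases apart on chromosome 5, are 78.1% identical over the coding bases aligned and share no run longer than 21 bases. Arpc5l and Arpc5 are 75.2% identical, also with no shared run longer than 21 bases.

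The promoters of the 3 called subunits are shown because these are the subunits that passed the test in KO gel against KO media. Each covers 250 bases before and 50 after the start of the gene on its own strand, 5′ to 3′, from RefSeq (GRCm38.p6), in which 8 of the 9 members were matched. Capitals mark the ETS core CCGGAAG on either strand and, in Arpc4, a CArG box, a motif known to bind serum response factor. Arpc4 lies at chr6:113377863-113378162, Arpc5 at chr1:152766292-152766591 and Actr3 at chr1:125435678-125435977:
Arpc4: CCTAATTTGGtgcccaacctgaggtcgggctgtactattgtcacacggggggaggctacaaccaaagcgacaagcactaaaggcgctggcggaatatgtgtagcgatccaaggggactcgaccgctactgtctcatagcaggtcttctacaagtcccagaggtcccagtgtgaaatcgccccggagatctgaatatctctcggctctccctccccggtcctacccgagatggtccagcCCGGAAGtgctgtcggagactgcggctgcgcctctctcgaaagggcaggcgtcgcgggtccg
Arpc5: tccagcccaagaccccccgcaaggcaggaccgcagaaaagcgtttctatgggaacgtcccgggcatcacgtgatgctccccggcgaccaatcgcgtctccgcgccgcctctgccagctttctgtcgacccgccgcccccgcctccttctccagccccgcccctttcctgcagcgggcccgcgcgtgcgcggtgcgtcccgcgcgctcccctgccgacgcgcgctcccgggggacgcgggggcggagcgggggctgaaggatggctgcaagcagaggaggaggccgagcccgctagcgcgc
Actr3: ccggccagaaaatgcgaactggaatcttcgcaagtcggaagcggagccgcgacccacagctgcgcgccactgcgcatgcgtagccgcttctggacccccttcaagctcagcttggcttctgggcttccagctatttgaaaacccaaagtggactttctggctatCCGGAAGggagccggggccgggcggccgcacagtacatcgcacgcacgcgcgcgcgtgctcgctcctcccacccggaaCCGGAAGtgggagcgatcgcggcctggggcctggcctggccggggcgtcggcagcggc
The ETS core begins at -86 and -8 from the start site in Actr3 and at -12 in Arpc4, and Arpc5 has none in this window. Over the 8 promoters, 5 hold the ETS core (Actr2, Actr3, Arpc1a, Arpc3 and Arpc4), as do 9.12% of 27025 promoters of the same length. The GC box GGGCGG is in 6 of 8, against 35.9% of all promoters, and the CArG box is in 1 of 8, against 1.57%. The CCAAT box (CCAAT) is in 2 of 8, against 37.9%, and GCGCATGC, which resembles the NRF1 motif, in 3 of 8, against 2.8%. Both strands were searched, and no ETS core or CArG box overlapped another of these motifs in a member. The called Arpc5 lacks the ETS core, and the uncalled Actr2, Arpc1a and Arpc3 hold it. The motifs were chosen after the sequences were seen, and a match is a description of letters only.

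Calls among the activators of the complex went in both directions. Of the 6 WASP family genes tested in KO gel against KO media, 1 was called higher and 1 lower, where 11.1% of all genes were called higher and 9.74% lower. Jmy, a WASP-like activator, averaged 51.7 ± 3.3 CPM in KO gel and 41.4 ± 0.893 CPM in KO media (log2 fold change 0.32, adjusted p = 0.00576). Was, which encodes WASP, averaged 91.1 ± 0.821 CPM in KO gel and 112 ± 12.2 CPM in KO media (-0.29, adjusted p = 0.0233). Was was also lower in KO gel than in WT gel, where it averaged 116 ± 2.96 CPM (-0.34, adjusted p = 0.0139). Of 9 WAVE complex genes, 1 was called higher (Nckap1, a scaffold subunit, 0.40, adjusted p = 0.0177) and 1 lower (Abi2, an adaptor subunit, -0.35, adjusted p = 0.005). Nckap1 averaged 19.4 ± 1.43 CPM in KO gel and 14.8 ± 1.12 CPM in KO media. Nckap1l of the same list was not called in KO gel against KO media. In the WT groups, which are not part of that comparison, it averaged 341 CPM in gel and 326 CPM in media. Of 5 WASH complex genes, which act on endosomes, edgeR, DESeq2 and limma-voom each called 0, with 2 at an unadjusted edgeR p under 0.05. The list medians were 0.07 for the WASP family, -0.09 for the WAVE complex and 0.07 for the WASH complex, beside -0.0073 over all genes tested.

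Upstream of these activators, 1 of 10 GTPase and adaptor genes was called higher and 2 lower in KO gel against KO media, with a list median of 0. Of all genes, 11.1% were called higher and 9.74% lower. Dock2, an exchange factor for Rac, averaged 893 ± 13.7 CPM in KO gel and 729 ± 72.2 CPM in KO media (log2 fold change 0.29, adjusted p = 0.0274). Rac2, the Rac of blood cells, averaged 608 ± 13.1 CPM in KO gel and 720 ± 66.7 CPM in KO media (-0.24, adjusted p = 0.0467), and Grb2, an adaptor, was called lower too (-0.19, adjusted p = 0.028). Cdc42 averaged 412 ± 5.74 CPM in KO gel and 466 ± 30.5 CPM in KO media (-0.18, adjusted p = 0.0895). Of 9 inhibitors and branch removers, 2 coronins were called lower and 0 higher, with a list median of -0.04. Coro1a, the main coronin of T cells, averaged 1200 ± 26 CPM in KO gel and 1430 ± 84.9 CPM in KO media (-0.26, adjusted p = 0.0426), and Coro1c had the same log2 fold change (adjusted p = 0.0158). Of 3 genes listed as class II activators and branch stabilizers, whose products bind actin, Dbnl was called lower (-0.21, adjusted p = 0.0461). Cttn, which encodes cortactin, was called higher (1.06, adjusted p = 0.0387), at 1.36 CPM in KO gel and 0.664 CPM in KO media.

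Among the genes of the filament itself, calls were in 1 direction. Of 15 genes for actins, capping protein, profilin and cofilin, 7 were called lower and 0 higher in KO gel against KO media (9.74% of all genes and 19.5% of the more abundant ones were called lower), with a list median of -0.19 beside -0.18 for the Arp2/3 subunits. Actg1 averaged 791 ± 51.1 CPM in KO gel and 1090 ± 81.1 CPM in KO media (log2 fold change -0.46, adjusted p = 0.00102). Actb (-0.26, adjusted p = 0.035), the cofilin gene Cfl1 (-0.33, adjusted p = 0.00964) and the capping protein gene Capzb (-0.27, adjusted p = 0.021) were lower as well. Of 11 formins and other nucleators, which work without Arp2/3, 2 were called higher and 1 lower, with a list median of -0.15. Fmnl3 averaged 27.9 ± 2.65 CPM in KO gel and 39 ± 1.56 CPM in KO media (-0.48, adjusted p = 0.000871), while the calls for Fmnl2 and Spire2 were at levels under 1 CPM. Of 8 other actin-related genes outside the complex, edgeR, DESeq2 and limma-voom each called 0, with 3 at an unadjusted edgeR p under 0.05. Actr3b, the minor paralog of Actr3, ran from 1.21 to 1.93 CPM over the 12 libraries and was not called (-0.15, adjusted p = 0.581). Without WT gel 2 and KO media 3, the calls in the actin and capping list came to 2, and those among the class II activators, the inhibitors and the upstream GTPases to 0 each. Of the 18 called genes that were among the 4 lowest p-values of a list, 6 were still called without these libraries (Jmy, Abi2, Fmnl3, Fmnl2, Actg1 and Cfl1), and 18 kept the sign of their difference. In WT gel against WT media and in KO media against WT media, edgeR, DESeq2 and limma-voom each called 0 genes in each of these 9 lists, with 2 genes in all at an unadjusted edgeR p under 0.05 in each comparison. In KO gel against WT gel, where 7.12% of all genes were called higher and 7.71% lower, 3 of the 11 formins and other nucleators were called higher and 3 lower, while of the 15 actin and capping genes only Twf2, a twinfilin, was called (-0.26, adjusted p = 0.0369). Without WT gel 2 and KO media 3, Twf2 (-0.31, adjusted p = 0.0699) and Was (-0.35, adjusted p = 0.0635) were not called in that comparison, and 3 of 13 such genes were (Cttn, Grb2 and Fmnl3).

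Across the 12 libraries the subunits varied together to different degrees. Pearson's r between the log2 CPM of 2 members ran from 0.0178 (Arpc1b with Arpc5l) to 0.92 (Arpc5 with Actr3) over the 36 pairs, with a median of 0.608. The libraries fall into 4 groups and share their scaling, so these values are a description. Arpc2, Arpc5, Actr2 and Actr3 formed the tightest block, grouped after their values were seen, with r from 0.859 to 0.92, and were highest in KO media library 2. Arpc1b, Arpc3 and Arpc4 formed another, with r from 0.804 to 0.853, and were highest in WT media library 1. Arpc3 had an r of 0.0599 with Actr2 and 0.209 with Actr3. Among 5781 other genes that averaged at least 5 log2 CPM, those most like the mean of the 9 members over the 12 libraries were Tomm20 (Pearson's r 0.966), Vdac2 (0.96), Glipr2 (0.96), Galnt1 (0.958), Aurkaip1 (0.957) and Ino80c (0.956).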

How the data were processed

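Bulk RNA was measured in 12 libraries, 3 per group. The deposited table holds 1 raw count per gene symbol and library, with no normalization. Per the labels, total RNA was depleted of ribosomal RNA before library preparation. The genome GRCm38 (mm10) and the tools HISAT2, featureCounts, SAMtools, Picard, FastQC and MultiQC are named, per the submitters' processing notes. Versions, annotation, strand setting and the handling of reads with several matches were not stated there, and each can change counts of overlapping or copied genes. Replicates differed by more than sampling noise (a chi-square of 13 to 167 for each degree of freedom, in pairs of the same group).

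Genes were kept by edgeR's filterByExpr, scaled by TMM, and tested with the quasi-likelihood F test over the 4 groups (R 4.3.3, edgeR 4.0.16, limma 3.58.1, DESeq2 1.42.0), with Benjamini-Hochberg adjustment over all 19010 genes. SE is the absolute log2 fold change over the square root of F, and log2 CPM used a prior count of 2. Positions, exon lengths and transcripts came from GENCODE M21 (GRCm38), which matched 96.4% of symbols. The members and gene lists were chosen with earlier results of these data known. All members were named, with up to 4 genes per list in order of p in the comparison described. Of the listed genes, 9 did not enter the tests (1 symbol was not in the table, the others were low). Same-numbered libraries deviated together between WT gel and WT media (r of 0.238 to 0.796) and, weakly, between KO media and WT media (0.17 to 0.382), which a fit with the number as a block took up. The rule was an r above a fixed low limit for each of the 3 numbers. The alternatives were other scalings, filters, tools and samples. P-values measure the spread between these libraries.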

Additional observations from a re-analysis of the deposited data

Results flagged for a closer look

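Among the 76 genes tested in the 9 lists, 2 (2.63%, beside 3.35% of all genes) had a gel response that differed between the genotypes by the edgeR interaction test, with no member of the Arp2/3 complex among them. For Abi2, a WAVE complex adaptor, the difference between the KO and the WT response was -0.41 on the log2 scale (adjusted p = 0.0482). It averaged 23.9 ± 0.622 CPM in KO gel and 30.5 ± 3.17 CPM in KO media, against 29.6 ± 0.551 CPM in WT gel and 28.4 ± 0.985 CPM in WT media (SD, n = 3 each). For the formin Fmnl3 the difference was -0.49 (adjusted p = 0.0278), with 27.9 ± 2.65 CPM in KO gel and 39 ± 1.56 CPM in KO media, against 36.5 ± 1.69 CPM in WT gel and 36.2 ± 2.16 CPM in WT media. Without the libraries WT gel 2 and KO media 3, neither was called (Abi2 -0.42 with adjusted p = 0.184, and Fmnl3 -0.47 with adjusted p = 0.138). With all libraries kept, Abi2 was also not called with DESeq2 size factors, with library totals alone or with limma-voom. Fmnl3 was not called with library totals alone. In the fit of genes that averaged at least 3 log2 CPM, neither was called.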

How the results depend on the processing

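In KO gel against KO media, the 3 called members became 0 with library totals alone, 1 among genes that averaged at least 3 log2 CPM, 1 without WT gel 2 and KO media 3, and 8 with the replicate block, and ran from 1 to 4 when single replicates were left out. In KO gel against WT gel, the count of 0 became 1 (Arpc4) with DESeq2, with a fit of the 2 groups alone and with the replicate block, and ran from 0 to 1 when single replicates were left out. The other 3 comparisons kept 0 called members under every setting run, the replicate block included. Same-numbered libraries did not all deviate together in KO gel against KO media (r of -0.0399 to 0.2) or KO gel against WT gel (-0.454 to 0.151), so the block is no pairing there. For these cases the cause was not tested.

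No called value reversed. Library totals alone moved the members' median to 0.02 in KO gel against WT gel, -0.18 in WT gel against WT media and 0.01 in the interaction. In the same order, the median of all genes then stood at 0.102, -0.095 and 0.124. Among genes that averaged at least 3 log2 CPM the median was -0.10 in KO gel against KO media and 0 in KO gel against WT gel. Over all genes, calls in KO gel against KO media came to 3962 (1851 lower, 2111 higher), 6063 with no filter beyond 1 count, 2042 among genes that averaged at least 3 log2 CPM, and 869 lower with 2007 higher with library totals alone. The 7 calls in the actin and capping list became 1 with library totals alone and 2 in the fit of the more abundant genes. Differences between groups in the ratios of paired subunits moved by less than the spread between replicates without single replicates and, in a setting chosen after seeing the data, without WT gel 2 and KO media 3. A length correction cannot change those differences, but it sets the level: the log2 ratio of Arpc5l over Arpc5 ran from -3.27 to -2.84 with annotated exons and from -1.77 to -1.35 with the longest coding transcript. Every member had at least 1107 counts in every library, and replicates differed by more than counting noise.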
